A study of Mus musculus with 3 samples.

Results

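The calcium entry, exchange and dyad genes are 10 genes that load, hold and regulate the calcium signal of the heart muscle cell. They were chosen by name from the 21887 protein-coding genes of the RefSeq annotation, and all 10 were found on mouse build mm10 (GRCm38). Regions enriched for 5-methylcytosine (5mC) were mapped by MeDIP-seq, in which an antibody against 5mC pulls down methylated DNA fragments before sequencing. Heart muscle cells of male C57Bl6/J mice, 8 weeks old, gave 3 libraries: 1 labelled Sham, 1 labelled TAC (transverse aortic constriction, a surgery that loads the heart with pressure, here for 1 week according to the title of the series), and 1 labelled Input, the reference for calling peaks. With 1 library per group there was no replicate check, so no difference below was tested and no p-value is given. The labels do not say whether a library pooled several mice. A peak list holds no transcript levels, so the cell type label was not checked against marker expression.

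In heart muscle, calcium enters through the L-type channel in the transverse tubule and triggers release from the sarcoplasmic reticulum at a narrow junction called the dyad. Cacna1c encodes the pore of that channel, and Cacnb2 and Cacna2d1 its accessory subunits. Jph2 (junctophilin) ties the membranes of the dyad together, while Trdn (triadin), Asph (whose products include junctin) and Casq2 (cardiac calsequestrin) belong to the calcium store at the release channel. Slc8a1, the sodium-calcium exchanger, carries calcium out of the cell, Stim1 senses store calcium, and Camk2d is a calmodulin-dependent kinase that acts on this machinery. Methylation of CpG islands at promoters is known to accompany silencing, whereas methylation within gene bodies is common in transcribed genes.

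A peak was counted in a gene when its midpoint lay between the annotated start and end. The 10 gene bodies held 151 of the 135886 Sham peaks and 179 of the 162107 TAC peaks, a ratio of 1.19. The exact (Clopper-Pearson) 95% interval of this ratio, 0.949 to 1.48, holds 1. This and all later intervals cover counting error only, and neighbouring peaks are not independent. The TAC library was the deeper, with 14658177 tags against 12585289 per the file headers (1.16 times), and its whole list was 1.19 times as long. The headers also place 34.7% of the TAC tags in peaks against 29.9% of the Sham tags. The part of these library differences in the counts below was not tested. Over protein-coding genes the ratio of peak numbers was 1.07. With the TAC list cut to the length of the Sham list, the 10 genes held 151 and 154 peaks. In the whole lists Stim1 alone held 55 of the Sham and 44 of the TAC peaks. Without it the other 9 genes held 96 and 135, a ratio of 1.41 (1.07 to 1.85). Without Trdn the sums were 148 and 166, a ratio of 1.12 (TAC share 52.9%, 47.2 to 58.5). Both omissions were chosen after the values were seen, so the interval above 1 without Stim1 is no test. In base pairs under peaks the ratio was 1.07 with Stim1 (Sham 120473 bp, TAC 128823 bp) and 1.49 without it.

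Of the 10 genes, 7 had more TAC than Sham peaks (Slc8a1, Trdn, Cacna1c, Cacnb2, Cacna2d1, Camk2d and Asph), 2 had fewer (Stim1 and Casq2) and Jph2 had equal numbers. Of all protein-coding genes with any peak, 39.7% had more TAC peaks and 32.8% had fewer. Of those of at least 50 kb, 52.3% had more. With the TAC list held to its first 135886 rows, the length of the Sham list, 5 members had more TAC peaks (Slc8a1, Trdn, Cacna2d1, Camk2d and Asph), 4 had fewer (Stim1, Cacna1c, Jph2 and Casq2) and Cacnb2 had equal numbers. The members are long genes, with a median span of 308 kb against 17.2 kb for all protein-coding genes. The interval of Trdn (54.35 to 96.0) lay above an even split of 50%, and the intervals of the other 9 spanned it. TAC peaks made up 54.4% of both whole lists, however, and the interval of Trdn just includes that share. Of the peaks in protein-coding genes they made up 51.7%, a share below the interval. With lists of equal length the interval of Trdn was 42.8 to 94.5 and spanned 50% too. In that setting, however, genes at large leaned toward Sham. Of protein-coding genes with at least 10 peaks, 8.40% reached a ratio of 1.5 toward TAC and 20.6% toward Sham. An even split is thus not the background share with lists of equal length.

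**Figure D1:**
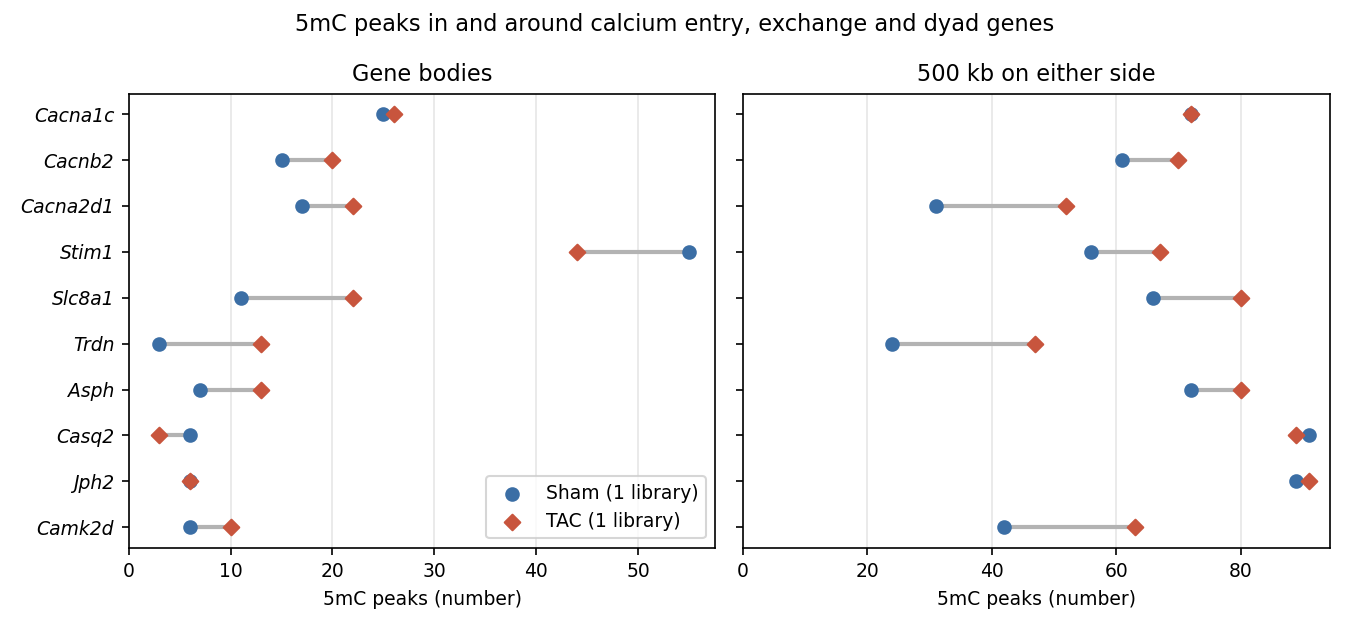
Number of 5mC peaks (x axis) in each gene body (left) and in the 500 kb on either side (right) for the Sham library (circles) and the TAC library (diamonds), 1 library each. Stim1 stands out with 55 Sham and 44 TAC peaks in its body, while in Slc8a1, Trdn and Asph the TAC symbol lies to the right.

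No promoter window of these genes was overlapped by a peak in either library. RefSeq windows of 300 bases, from 250 before to 50 after a transcript start (build GRCm38.p6), were at hand for 8 of the 10 genes, 12 windows in all. Over the 21263 windows of protein-coding genes 3.17% were overlapped by a Sham peak and 3.43% by a TAC peak, so 0 of 12 is near the background. The letters CG, the site of 5mC, were counted in each window, and being a palindrome they read the same on both strands. At least 1 CG occurred in 95.4% of all windows. Of the 12 windows, 5 held at least 20 CG, as 35.9% of all windows did, and the other 7 held fewer than 10. Windows with at least 20 CG were overlapped less often in the genome (1.43% in Sham and 1.86% in TAC) than windows with fewer than 10 (4.16% and 4.404%).

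The 250 bases before the start are shown for 4 genes, chosen after their values were seen, with each CG in capitals and the sequence of the coding strand written 5′ to 3′. Stim1 and Cacnb2 have CG-rich starts with a peak of each library nearby. Slc8a1 and Casq2 have CG-poor starts, and their nearest peak lay closer in TAC for Slc8a1 and closer in Sham for Casq2.
Stim1, chr7:102267569-102267818, plus strand: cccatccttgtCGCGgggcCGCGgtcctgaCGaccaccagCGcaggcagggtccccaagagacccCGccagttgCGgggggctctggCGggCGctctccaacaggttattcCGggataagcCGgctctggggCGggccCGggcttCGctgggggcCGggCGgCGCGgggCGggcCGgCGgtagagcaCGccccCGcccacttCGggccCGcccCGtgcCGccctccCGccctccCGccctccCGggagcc
Cacnb2, chr2:14604056-14604305, plus strand: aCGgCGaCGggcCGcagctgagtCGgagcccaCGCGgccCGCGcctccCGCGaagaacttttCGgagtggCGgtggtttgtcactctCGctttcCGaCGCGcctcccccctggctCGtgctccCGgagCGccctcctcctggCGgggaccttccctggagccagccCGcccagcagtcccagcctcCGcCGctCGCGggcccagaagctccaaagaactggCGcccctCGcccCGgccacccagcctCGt
Slc8a1, chr17:81738388-81738637, minus strand: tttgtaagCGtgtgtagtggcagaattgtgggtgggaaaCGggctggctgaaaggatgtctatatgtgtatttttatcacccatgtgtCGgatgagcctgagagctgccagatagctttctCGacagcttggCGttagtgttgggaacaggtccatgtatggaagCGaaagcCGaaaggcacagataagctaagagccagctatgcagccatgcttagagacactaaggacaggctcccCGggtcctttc
Casq2, chr3:102086165-102086414, plus strand: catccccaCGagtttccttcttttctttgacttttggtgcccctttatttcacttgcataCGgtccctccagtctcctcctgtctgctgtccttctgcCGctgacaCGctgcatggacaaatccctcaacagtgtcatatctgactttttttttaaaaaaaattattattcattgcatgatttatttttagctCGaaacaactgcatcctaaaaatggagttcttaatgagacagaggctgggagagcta
These hold 31, 30, 8 and 5 CG. Around the Stim1 window the nearest Sham peak was 1135 bp and the nearest TAC peak 892 bp away, both upstream and both within the longer annotated gene. At Cacnb2 the distances were 391 and 427 bp. At Slc8a1 they were 6331 bp in Sham and 1280 bp in TAC, and at Casq2 1158 bp in Sham and 7579 bp in TAC. The window with the most CG, an inner start of Cacna1c with 57, had its nearest peak 11665 bp away in Sham and 11520 bp away in TAC.

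**Figure D2:**
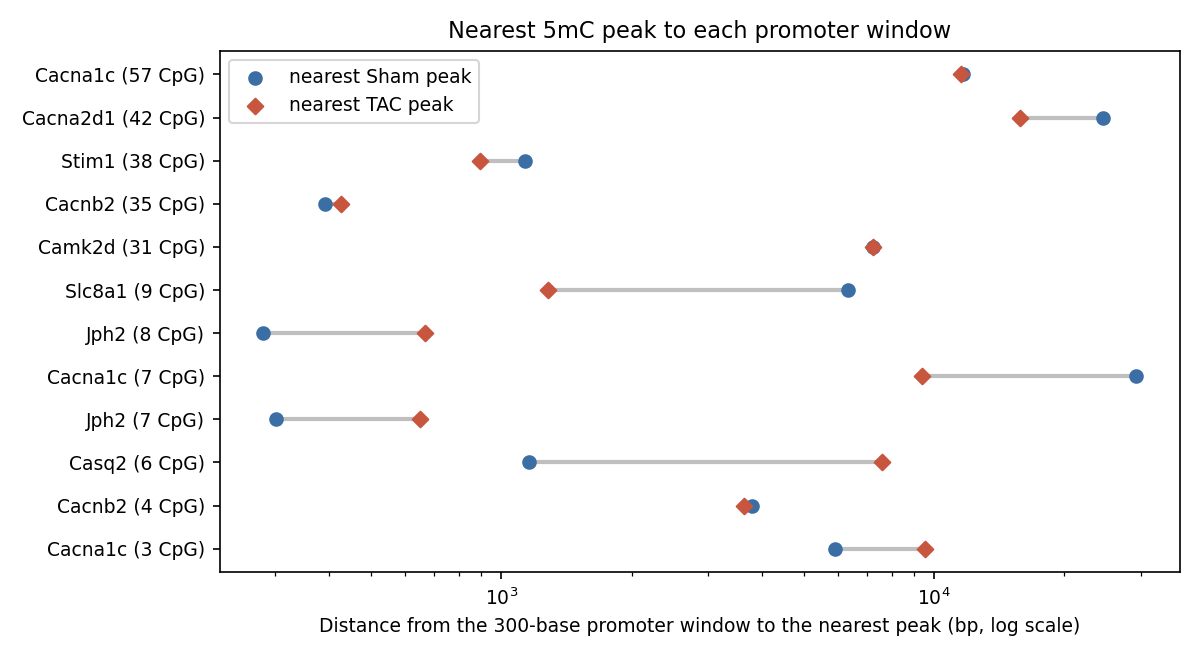
Distance in bp (log x axis) from each of the 12 promoter windows to the nearest Sham peak (circles) and TAC peak (diamonds), with windows ordered by their number of CG. All distances are above 0; the closest peak lies 282 bp from a Jph2 window, in Sham.

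Among the subunits of the L-type channel, Cacna1c (gene ID 12288, chromosome 6, 118587240 to 119197384) had 25 peaks in Sham and 26 in TAC, and 25 and 23 with lists of equal length. TAC peaks thus made up 51.0% (36.6 to 65.2) of the peaks of both lists, which is called the TAC share below. In each library 14 peaks overlapped a peak of the other by at least 1 bp, which is called shared below, and 11 Sham-only peaks stood against 12 TAC-only peaks. Near-equal totals thus went with many peaks in different positions, which is common in these lists. Shared peaks were 56% of the Sham and 53.8% of the TAC peaks of the gene. Over peaks in protein-coding genes these shares were 63.8% and 59.9%. The widest Sham-only peak of the gene (119009064 to 119010822, 1759 bp) lay 3858 bp from the nearest TAC peak. Toward the 5′ end, TAC-only peaks lay 10.9 and 35.9 kb from the gene start, and the peak at 10.9 kb falls in the part that overlaps the protein-coding gene Dcp1b.

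Cacnb2 (12296, chromosome 2, 14603861 to 14988811) had 15 peaks in Sham and 20 in TAC, a TAC share of 57.1% (39.4 to 73.7). With the gene cut into 3 equal parts, the 5′ part held 9 of the 15 Sham and 11 of the 20 TAC peaks. There were 4 Sham-only and 9 TAC-only peaks, and 5 of the TAC-only peaks lay in that 5′ part. The widest TAC peak (14761233 to 14762784, 1552 bp) overlapped a Sham peak of 652 bp. Cacna2d1 (12293, chromosome 5, 15934264 to 16374511) held 17 and 22 peaks, a TAC share of 56.4% (39.6 to 72.2), and it too had 4 Sham-only and 9 TAC-only peaks. Of its 13 shared pairs, 6 were wider in TAC, 1 was wider in Sham and 6 were equal. Over the 3 channel genes the order of the TAC share was thus Cacnb2, Cacna2d1, Cacna1c, and all 3 intervals overlapped.

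Stim1, the store sensor (20866, chromosome 7, 102261514 to 102437319), was by far the most densely marked member. It held 31.28 Sham and 25.03 TAC peaks per 100 kb, where the median over the 4945 protein-coding genes of at least 50 kb was 5.18 and 5.92. In Sham 2 and in TAC 5 of these genes, Stim1 included, were at least as dense. Peaks covered 36.2% of its body in Sham (63701 bp) and 25.1% in TAC (44053 bp), a ratio of 0.692, while the ratio of peak numbers was 0.8. The TAC share of its peaks was 44.4% (34.5 to 54.8).

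Most of the Stim1 pattern was common to both libraries, since 41 of the 55 Sham peaks (74.5%) and 41 of the 44 TAC peaks (93.2%) were shared. Over peaks in protein-coding genes these shares were 63.8% and 59.9%. Sharing was most common early in both lists, and Stim1 peaks stood early there. Their median position was 14.6% of the Sham rows and 19.3% of the TAC rows. The part of list position and of peak density in the sharing at Stim1 was not tested. The 14 Sham-only peaks outnumbered the 3 TAC-only peaks, and the TAC share of unshared peaks was 17.6% (3.80 to 43.4). Over unshared peaks in all protein-coding genes that share was 54.3%, and over all unshared peaks 61.0%. Some Sham-only peaks stood early in the Sham list, in which wide peaks come first. The widest, 102316777 to 102319509, measured 2733 bp at 5.599% of the rows, and the nearest TAC peak lay 778 bp away. A second one, 102353243 to 102355425, measured 2183 bp at 7.11%, with 1045 bp to the nearest TAC peak. All 3 TAC-only peaks lay within 765 bp of a Sham peak. Among the 40 Sham peaks with a single TAC partner, 22 were wider in Sham, 13 wider in TAC and 5 equal. The widest Sham peak (102274016 to 102277865, 3850 bp) overlapped a TAC peak of 1103 bp. The widest TAC peak (102284523 to 102287710, 3188 bp) overlapped a Sham peak of 2231 bp. One further Sham peak, of 3841 bp, overlapped 2 TAC peaks, so numbers in so dense a gene also depend on how neighbouring peaks were joined.

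Slc8a1, the exchanger (20541, chromosome 17, 81373105 to 81738387, minus strand), had 11 peaks in Sham and 22 in TAC, 2 times as many, and a TAC share of 66.7% (48.2 to 82.0). Of the 11 Sham peaks 9 were shared, so that TAC held the Sham pattern and 13 peaks beside it, against 2 Sham-only peaks. The TAC share of its unshared peaks was 86.7% (59.5 to 98.3). That interval includes the 61.0% of all unshared peaks but lies above the 54.3% of unshared peaks in protein-coding genes. Of 3 equal parts of the gene, the 5′ part held 6 TAC-only peaks, the middle 1 and the 3′ part 6. All peaks of the gene were laid out alike, with 4, 2 and 5 in Sham and 9, 2 and 11 in TAC. Nearest to the 5′ end, TAC-only peaks lay 1.66, 7.54 and 23.0 kb from the gene start, each at least 7910 bp from the nearest Sham peak. The widest TAC-only peak (81580735 to 81582231, 1497 bp) stood at 28.4% of the TAC rows, while both Sham-only peaks had the most common peak width of 501 bp and stood at 88.0% and 99.9% of the Sham rows. Peaks covered 5770 bp of the gene in Sham and 14193 bp in TAC, a ratio of 2.46.

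Trdn, the triadin gene (76757, chromosome 10, 33083483 to 33476709), had 3 peaks in Sham and 13 in TAC, a ratio of 4.33 and a TAC share of 81.2% (54.4 to 96.0). A single position, 33260106 to 33260804 in Sham, was shared, and 12 TAC-only peaks stood against 2 Sham-only peaks. Of 3 equal parts of the gene, the one at the lower coordinate held 4 TAC peaks and 0 Sham peaks. The widest TAC-only peak (33111260 to 33112540, 1281 bp) lay 56056 bp from the nearest Sham peak and stood at 30.7% of the TAC rows. Of the 12 TAC-only peaks, 8 were 501 bp wide and 2 stood in the first 50% of the rows. Both Sham-only peaks lay within 878 bp of a TAC peak. Trdn was sparse in both libraries, with 0.763 Sham and 3.31 TAC peaks per 100 kb. Of the 3597 protein-coding genes with at least 10 peaks in both lists together, 10, Trdn included, had a TAC share as high as that.

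Asph (65973, chromosome 4, 9449085 to 9669344) had 7 peaks in Sham and 13 in TAC (TAC share 65.0%, 40.8 to 84.6). Of the 7 Sham peaks 5 were shared, and 8 TAC-only peaks stood against 2 Sham-only peaks. Its first TAC-only peak, 9450581 to 9451206, falls where Asph overlaps the protein-coding gene Clvs1. Casq2 (12373, chromosome 3, 102086415 to 102146514) had more Sham peaks, 6 against 3, too few for a narrow interval (TAC share 33.3%, 7.49 to 70.1). All 3 TAC peaks of Casq2 were shared, and 3 peaks were Sham-only, among them one of 501 bp near the 3′ end (102145159 to 102145659) at 20.1% of the Sham rows. Jph2 (59091, chromosome 2, 163336242 to 163398049) held 6 and 6 peaks, of which 5 were shared in each library. The widest shared pair in Jph2 measured 1526 bp in Sham (163374769 to 163376294) and 1450 bp in TAC (163374829 to 163376278). Jph2 and Casq2 are the shortest of the 10 genes, at 61.8 and 60.1 kb.

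Camk2d, the kinase gene (108058, chromosome 3, 126595487 to 126846326), had 6 peaks in Sham and 10 in TAC (TAC share 62.5%, 35.4 to 84.8). In each library 4 peaks were shared, and 6 TAC-only peaks stood against 2 Sham-only peaks. All 6 lay at least 3709 bp from a Sham peak, and 5 of them were 501 bp wide. In the first 50% of the rows of each list Camk2d held 0 Sham and 3 TAC peaks.

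**Figure D3:**
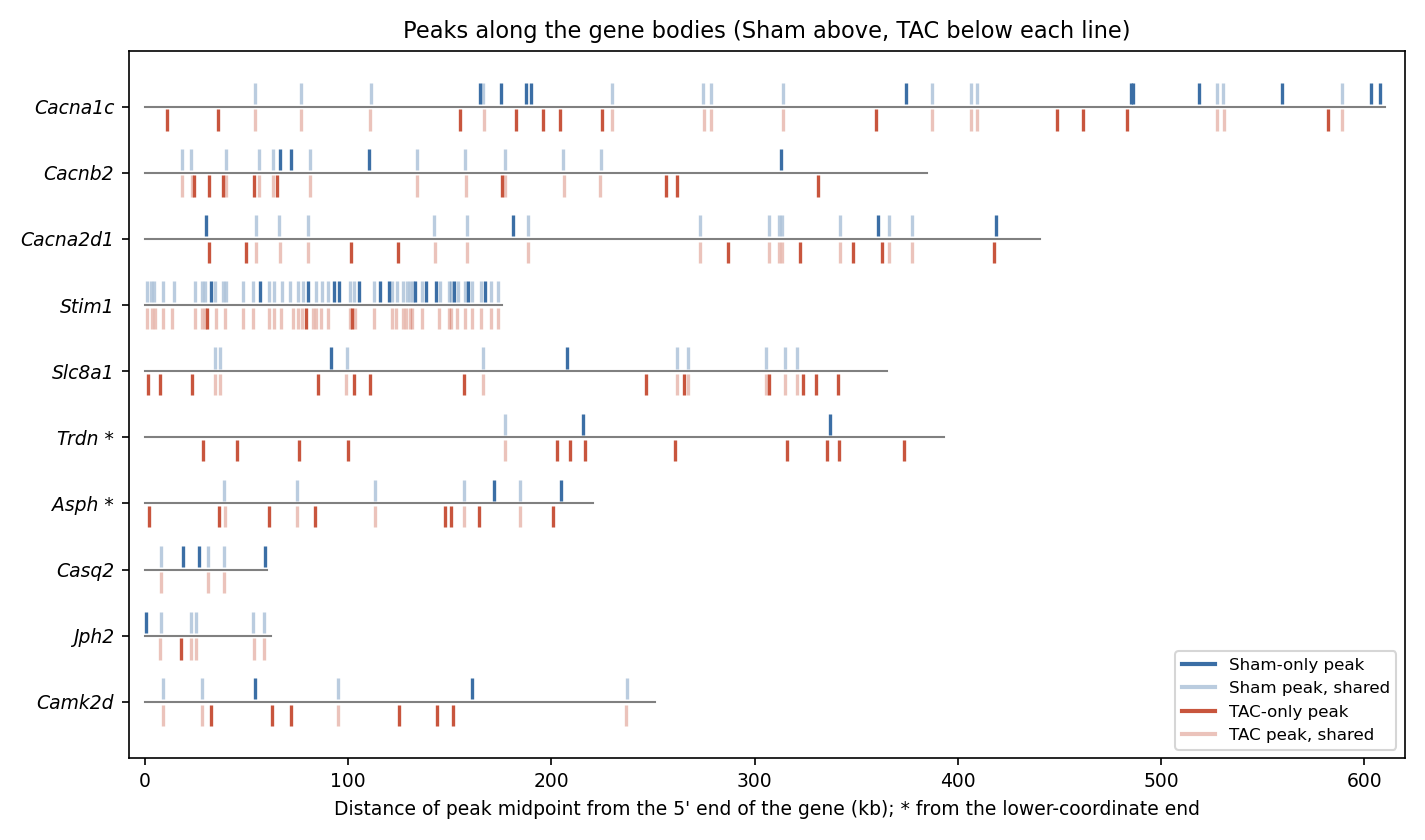
Peak midpoints along each gene (x axis, kb from the 5′ end, or from the lower coordinate for Trdn and Asph, marked with a star), with Sham peaks above and TAC peaks below each line, dark where unshared and pale where shared. TAC-only marks are spread along Trdn. In Slc8a1 they lie toward both ends, as do the peaks of either library there. Among the dark marks of Stim1 those of Sham prevail.

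Set against all genes, 4 of the 9 members with at least 10 peaks (Slc8a1, Trdn, Camk2d and Asph) had a TAC to Sham ratio of at least 1.5, and 0 had a ratio of Sham to TAC that high. Over the 3597 protein-coding genes with at least 10 peaks these shares were 17.8% and 10.3%. The median TAC share was 56.8% over the 10 members and 50% over those 3597 genes, with quartiles of 45.5% and 57.1%. At least the TAC share of Slc8a1 was reached by 6.51% of the genes, that of Asph by 7.20%, that of Camk2d by 11.1%, that of Cacnb2 by 25.5% and that of Stim1 by 80.7%. Among genes with at most 5 protein-coding genes within 500 kb, 30.4% had a ratio of at least 1.5. Among those with 6 to 15 it was 14.7%, and among those with more than 15 it was 13.4%. Slc8a1, Camk2d and Asph have 2 such neighbours each, and Trdn, Cacnb2 and Casq2 have 6 each. Cacna2d1 has 7, Cacna1c 15, Jph2 19 and Stim1 50. The part of gene density in the members' ratios was not tested.

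**Figure D4:**
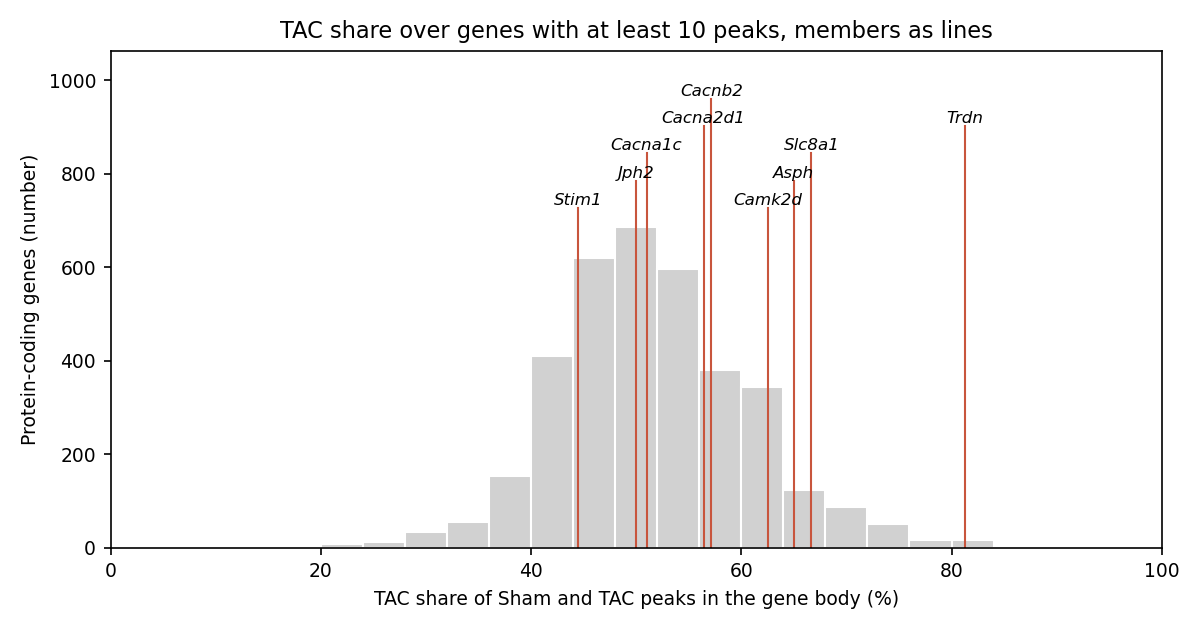
Histogram of the TAC share of peaks (x axis, %) over the 3597 protein-coding genes with at least 10 Sham and TAC peaks together (y axis, number of genes), with the 9 members that reach this number as lines. Stim1 lies at 44.4%, Jph2 at 50% and Trdn at 81.2%.

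The 500 kb on either side of the genes were counted in the same way. Summed over the 10 genes, there were 604 peaks in Sham and 711 in TAC. That is 1.18 times as many (1.05 to 1.31), beside 1.19 in the gene bodies. Around Trdn they held 24 and 47 peaks, a TAC share of 66.2% (54.0 to 77.0), around Cacna2d1 31 and 52 (62.7%, 51.3 to 73.0) and around Camk2d 42 and 63 (60%, 49.98 to 69.4). In these genes body and flanks both held more TAC peaks. With lists of equal length the intervals of all 3 flanks spanned 50%, at 45.7 to 71.9 around Trdn, 41.9 to 66.5 around Cacna2d1 and 46.3 to 66.7 around Camk2d. Genes at large leaned toward Sham in that setting, so 50% is not its background share. Around Slc8a1 the flanks held 66 and 80 peaks (54.8%, 46.4 to 63.0) and around Asph 72 and 80 (52.6%, 44.4 to 60.8), both below the share of the gene body. Stim1 was the reverse case, with 56 Sham and 67 TAC peaks outside (54.5%, 45.2 to 63.5) and fewer TAC peaks inside. The flanks of Cacna1c held 72 and 72, those of Jph2 89 and 91, those of Casq2 91 and 89, and those of Cacnb2 61 and 70. For every one of the 10 genes the interval of the body overlapped that of its flanks.

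**Figure D5:**
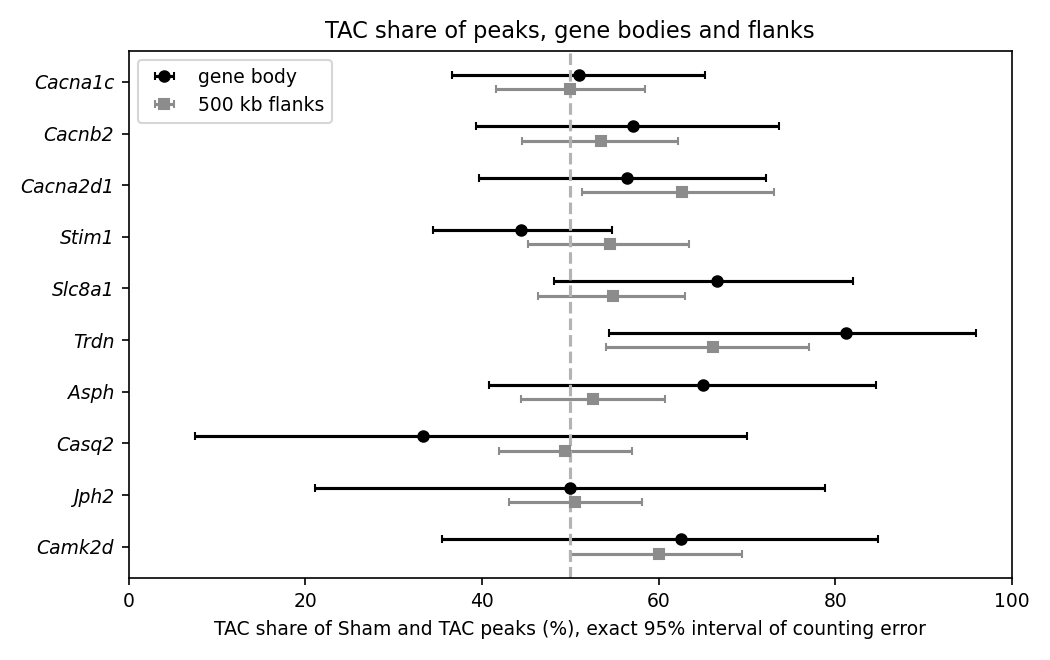
TAC share of Sham and TAC peaks (x axis, %) for each gene body (circles) and its 500 kb flanks (squares), with exact 95% intervals of counting error and a dashed line at 50%. The body of Trdn and the flanks of Trdn and Cacna2d1 have intervals wholly above 50%. All 3 include the 54.4% of the whole lists and span 50% with lists of equal length, a setting in which genes at large leaned toward Sham. The interval of the Trdn body lies above the 51.7% of peaks in protein-coding genes.

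Sharing of peaks between libraries was graded by list position. The deposited score is 1 for every peak, but width and sharing follow the order of the rows. What the authors ordered the rows by is not stated in the headers or labels, so a position in the rows, and any setting that keeps the first rows, need not reflect signal strength. In the first 10% of the Sham rows the median width was 958 bp and 98.4% of peaks were shared, and in the last 10% these values were 501 bp and 39.5%. In TAC 98.4% of the first 10% and 22.7% of the last 10% were shared. Of the members' Sham peaks, 106 of 151 were shared (70.2%, 62.2 to 77.4), and of their TAC peaks 106 of 179 (59.2%, 51.6 to 66.5). Over peaks in protein-coding genes these shares were 63.8% and 59.9%. Without Stim1 the members' shares were 67.7% in Sham and 48.1% (39.5 to 56.9) in TAC. Shared member peaks had a median position of 36.1% of the rows in Sham and 23.1% in TAC, and unshared ones 66.6% and 67.2%. In protein-coding genes the unshared peaks had medians of 68.4% and 70.2%. Of the 73 TAC-only peaks of the members, 21 stood in the first 50% of the TAC rows and 52 were 501 bp wide. Their median gap to the nearest Sham peak was 8091 bp. The 45 Sham-only peaks had a median gap of 2188 bp to the nearest TAC peak. The dense gene Stim1 held 14 of these, with gaps of 247 to 4474 bp, but only 3 of the TAC-only peaks. The 2 medians thus draw on Stim1 unequally, and gaps over all unshared peaks of the lists were not measured.

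List position also differed within shared sites. At Slc8a1 the site 81701103 to 81701736 stood at 11.9% of the Sham rows and its TAC counterpart at 2.84% of the TAC rows, the earliest of the gene in both lists. The earliest Cacna1c site in the Sham list, 118669367 to 118670127 in Sham, stood at 3.27% and its counterpart at 4.98%. The lists differ in length and threshold, so these positions show no change between the libraries.

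Ends of genes were examined next, and an end counts as covered where any peak reaches within 1 kb of it. Stim1, Cacnb2, Camk2d and Jph2 were covered in both libraries, Casq2 in Sham alone, Cacna1c in TAC alone, and Slc8a1, Trdn, Cacna2d1 and Asph in neither. Over protein-coding genes 16.0% were covered in both, 7.68% in Sham alone, 8.59% in TAC alone and 67.8% in neither. Stim1 was covered at both ends, Cacnb2 and Jph2 at the 5′ end and Camk2d at the 3′ end. At Jph2 the TAC peak nearest the start, 163398891 to 163399535, lay 842 bp outside the gene and was shared. The Sham peak nearest the start, 163397142 to 163397642, lay 407 bp inside and was unshared. The ends covered in 1 library were 3′ ends. At Casq2 the Sham peak lay 855 bp from the 3′ end and the nearest TAC peak 21101 bp from it. At Cacna1c a TAC peak (118586849 to 118587349) lay across the 3′ end, while the nearest Sham peak was 1894 bp away. That TAC peak stood at 78.3% of the TAC rows, among the later ones.

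Another 55 calcium handling genes, listed with earlier results of these data known, had 477 peaks in Sham and 483 in TAC, a ratio of 1.01. Of these, 19 had more TAC peaks, 16 fewer, 14 equal numbers and 6 no peak in the gene body, namely Atp2a2 (the calcium pump of the store), Pln (its inhibitor phospholamban), Hrc, S100a1, Orai3 and Rrad. The 26 with at least 10 peaks had a median TAC share of 50%. Of the 26, 2 reached a ratio of 1.5, namely Ryr2, the release channel (20 and 31), and Slc8a3, an exchanger paralogue (4 and 6). Toward Sham 1 reached it, namely Atp2b4, a plasma membrane calcium pump (17 and 11). Over protein-coding genes with at least 10 peaks these shares were 17.8% and 10.3%. Of protein-coding genes with any peak, 39.7% had more TAC peaks and 32.8% fewer.

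Paralogues of the members are given with the Sham number first. The exchanger gene Slc8a2 held 8 and 6 peaks. Stim2 held 15 and 12, and Jph1 5 and 7. The kinase genes Camk2a, Camk2b and Camk2g held 14 and 12, 14 and 12, and 5 and 6. Of other channel subunits, Cacna1d held 48 and 46, Cacna1g 15 and 14, Cacna1h 6 and 7, Cacnb4 29 and 28, Cacna2d2 18 and 13, Cacna2d3 48 and 59, and Cacng4 7 and 10. The inositol trisphosphate receptor genes Itpr1, Itpr2 and Itpr3 held 10 and 10, 49 and 45, and 16 and 12. Each of these intervals spanned an even split. Mcu, the mitochondrial calcium uniporter gene, held 22 and 17, and its regulator Micu2 9 and 9. The plasma membrane pump gene Atp2b2 held 20 and 23, the mitochondrial exchanger gene Slc8b1 6 and 7, and the cation channel gene Trpc4 7 and 7. Among the 55 genes, the TAC list alone reached an end of Sri, Fkbp1a and Tmem38a, among others. The Sham list alone did so at Bin1, Stim2, Cacna1g, Cacnb3, Cacng6, Slc8a2 and Camk2b, and both lists at 14 genes.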

How the data were processed

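The submitters' processing notes name BWA (0.7.4-r385), Picard, HOMER (4.5) and the build mm10. Per the file headers, HOMER searched each library by itself for broad regions against 1 input, at 4-fold over it, and a peak needed at least 11 tags in Sham and 12 in TAC. The score column that the authors deposited is 1 in every row, so only positions and row order were used. The Input library was otherwise not analysed here.

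BED starts were turned into 1-based positions. Gene spans came from a table of RefSeq GRCm38.p6 with 1 row per gene, and exon and intron positions were not analysed here. Strand came from the RefSeq promoter table, which was not used for Trdn and Asph. Python 3.11.15, pandas 2.3.3 and scipy 1.17.1 were used, and counting was tested on simulated data. Members, lists and comparisons were chosen with earlier results of these data known. Named were all members, listed calcium genes and neighbours within 500 kb with at least 10 peaks in both lists together, and listed genes covered at an end in 1 library. A few of the listed genes are not reported here by name. Other list positions, overlaps, widths and windows were tried.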

Additional observations from a re-analysis of the deposited data

How the results depend on the processing

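Leaving out Stim1 or Trdn, and list settings for other calcium genes and for all genes, were chosen after seeing the data. With the TAC list held to as many rows as the Sham list, the flanks held 604 Sham and 604 TAC peaks (TAC share 50%), the other calcium genes 477 and 405 (45.9%) and the members 151 and 154, and 8.40% of genes reached a ratio of 1.5 toward TAC and 20.6% toward Sham. Slc8a1, Trdn, Camk2d and Asph reached 1.5 there. Among members that kept at least 10 peaks, Slc8a1, Asph and Cacna2d1 reached it in the first 75% or 50% of rows, and Slc8a1, Cacna1c and Cacna2d1 with peaks of at least 600 bp. Trdn then had fewer than 10 peaks, at 1 and 8, 0 and 3, and 1 and 4. Camk2d held 0 and 3 in the first 50%, and at 600 bp Camk2d held 1 and 3 and Asph 3 and 6. Over 60 values of single gene bodies 57 stayed within the counting interval and 3 moved. The settings recount largely the same peaks and many intervals are wide, so this count does not show stability. Of the 60, 1 took the opposite direction (Cacna1c, 25 and 23 with equal rows) and 6 went into or out of a tie (Jph2, Cacnb2 and Casq2). Sharing of member peaks was 60.3% in Sham and 50.8% in TAC when 50% of both peaks had to overlap, 84.1% and 79.8% in the first 50% of rows, and 48.1% in TAC without Stim1. Gene-end coverage depended on the window. Within 500 bp, 2 members were covered in Sham, 3 in TAC, 2 in TAC alone and 1 in Sham alone (Jph2). Within 2 kb, 2 were covered in TAC alone, Slc8a1 and Asph, and 1 in Sham alone, Casq2. In the first 75% of rows 2 were covered in TAC, 3 in Sham alone and 0 in TAC alone. Shares over all protein-coding genes were counted only for the 1 kb window and the whole lists. No paired analysis was possible because each group has 1 library and the result comes from no test. Leaving out a replicate was not possible either. The lists give no tags per peak, so signal within shared peaks was not compared.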

Other observations

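The protein-coding genes that reach into the 500 kb around the members and hold at least 10 peaks differed in which library held more. Their peaks were counted over the whole gene, which for some extends beyond the 500 kb. Peaks inside the 500 kb are also part of the flank counts above. Near Trdn, at 186 kb, Nkain2 (chromosome 10, 31689310 to 32897174), which encodes a protein that interacts with the sodium pump, had 23 peaks in Sham and 43 in TAC (65.2% from TAC, 52.4 to 76.5). Near Camk2d, at 75.3 kb, Ank2, the ankyrin-B gene that anchors membrane transporters in heart muscle, held 24 and 39 (61.9%, 48.8 to 73.9). Clvs1, which overlaps Asph, held 19 and 23, and Slc39a12 near Cacnb2, a zinc transporter gene, 4 and 9. Cacna2d4, another calcium channel subunit gene 39.1 kb from Cacna1c, held 10 and 12, and Erc1 and Wnt5b on the same side 11 and 12, and 8 and 8. Fewer TAC than Sham peaks were found in Tmem178 near Slc8a1 (10 and 7), Tox2 near Jph2 (16 and 11), Slc22a15 near Casq2 (9 and 6), Rasgef1a and Adipor2 near Cacna1c (14 and 12, and 6 and 4) and Mrc1 near Cacnb2 (11 and 9). Hnf4a and Rims4 near Jph2 held 5 and 8, and 8 and 8, and Tmem236 near Cacnb2 8 and 9. The interval of Nkain2 lay above an even split and above the 51.7% that TAC makes up of peaks in protein-coding genes. It includes the 54.4% that TAC makes up of both whole lists. The intervals of the other genes spanned 50%.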
